A study of Homo sapiens with 8 samples.

Results

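A total of 40 genes of the cell division cycle were followed through poly-A RNA-seq of SH-SY5Y cells, a human neuroblastoma line that divides in culture. They were chosen by name, 20 for DNA replication and 20 for mitosis, and each symbol matched 1 row of a table of 47591 genes. The replication genes were MCM2 to MCM7, CDC45, GINS1, GINS2, CDC6, CDT1, PCNA, RFC2, RFC3, RFC4, POLA1, FEN1, TYMS, RRM1 and RRM2. The mitotic genes were CCNA2, CCNB1, CCNB2, CDK1, AURKA, AURKB, PLK1, TPX2, BUB1, BUB1B, MAD2L1, TTK, CDC20, KIF11, KIF20A, KIF23, CENPE, CENPF, TOP2A and ANLN. All 40 passed the filter on low values, an average of 10 or more normalized counts over the 8 libraries, which 18947 genes passed.

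The lines were G2 (3 libraries), given CRISPR/Cas9 with a guide against PRPF40B, a splicing factor, SCR (3 libraries), given CRISPR/Cas9 with a scrambled guide, and WT (2 libraries), the unedited cells. G2 is the name of a line here and not the cell cycle phase. G2 was grown from a colony isolated by limiting dilution after puromycin selection, so that what belongs to the clone and what belongs to the edit cannot be told apart. SCR, for which no cloning is described, was kept in puromycin like G2, and WT was not, so that SCR/WT also covers delivery of the editing reagents and the drug. The labels call the libraries of a line biological replicates without saying whether they came from separate cultures, and p-values measure only the spread between these libraries. PRPF40B stood at 840.2, 840.9 and 917.7 normalized counts in the G2 libraries, at 1686, 1672 and 1669 in SCR and at 1972 and 1668 in WT. It was lower in G2 in all 3 libraries (exact two-sided permutation test against the 5 other libraries, p = 0.0179, the smallest that 56 groupings allow), with a log2 fold change of −0.95 against SCR.

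Library depth, recovered from the steps of the values, ran from 59804395 to 81080747 reads, and ribosomal RNA took 4.75 and 4.96% of the WT libraries against 0.384 to 0.587% of the others. Of 10 noradrenergic neuroblastoma markers, 7 were called lower in G2 than in SCR (11.8% of all genes by the rule given below). TH was among these 7 but stood near 0 in all lines (means of 1.88, 14.0 and 16.9 normalized counts in G2, SCR and WT). GATA3 was higher in G2 than in SCR by 0.37 on the log2 scale (limma, adjusted p = 1.38e-04). None of the 10 was called in SCR/WT. Of 10 mesenchymal markers, 8 were called higher in G2 than in SCR (15.1% of all genes) and 3 higher in SCR than in WT (10.7%), TWIST1 stood lower in G2 than in SCR (log2 −0.39, adjusted p = 7.30e-05), and PRRX1 was listed at 0 in every SCR and WT library. The summed level of the first list, led by STMN2, was 266250 to 270772 normalized counts in G2, 366086 to 377528 in SCR and 330264 to 341747 in WT, and that of the second, led by VIM, 361585 to 365656, 136188 to 143369 and 103253 to 117638. Without STMN2 the first sums were 98174 to 108094, 192672 to 207935 and 212530 to 225916, so that the order of SCR and WT depends on that gene. Without VIM the second sums were 149127 to 150551, 53563 to 55083 and 48670 to 53860, so that SCR and WT then overlapped. The part of these shifts and of the ribosomal RNA in the results below was not tested. In bulk RNA, fewer cells in a phase of the cycle and less RNA per cell in that phase cannot be told apart.

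Before S phase, CDC6 and CDT1 load the MCM2 to MCM7 helicase ring onto DNA at origins, CDC45 and the GINS complex switch the ring on, and polymerases then copy the strands while PCNA, loaded by the RFC complex, holds them to the template. Cells enter mitosis when cyclin A and cyclin B drive CDK1, after which the Aurora and Polo kinases, kinesin motors and the spindle checkpoint build and survey the spindle, and cytokinesis divides the cell. Transcripts of the first set are known to peak around the start of S phase, under E2F factors, and those of the second in the phase before mitosis and in mitosis, through a CHR element that is often found together with CCAAT boxes.

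The promoters of the 2 sets differed in how often they held the letters searched. RefSeq promoters (GRCh38.p14; 250 bases before and 50 from the start site on) were matched for 35 of the 40 genes, and MCM4, MCM5, AURKA, TTK and TPX2 had no entry. One of the E2F octamers TTTCCCGC, TTTGGCGC, TTTCGCGC and TTTGCCGC lay, on either strand, in 12 of 18 replication promoters and 1 of 17 mitotic ones, against 3.31% of all 35116 promoters. The CHR letters TTTGAA or TTCGAA lay in 2 of 18 replication and 12 of 17 mitotic promoters (16.4% of all). CCAAT lay in 10 of 18 and 14 of 17 (34.6% of all), and CHR together with CCAAT in 2 of 18 and 10 of 17 (6.38% of all). These are letter matches and not binding sites, and by their letters some of the motifs can share an end base. The 3 promoters of each set whose genes moved furthest between G2 and SCR, leaving out MCM4, are shown 5′ to 3′ on the strand of the gene. The change of CDT1 between G2 and SCR did not pass either rule used below. Capitals mark every match to the E2F, CHR and CCAAT letters on either strand.
GINS1, chr20:25407423-25407722, + strand: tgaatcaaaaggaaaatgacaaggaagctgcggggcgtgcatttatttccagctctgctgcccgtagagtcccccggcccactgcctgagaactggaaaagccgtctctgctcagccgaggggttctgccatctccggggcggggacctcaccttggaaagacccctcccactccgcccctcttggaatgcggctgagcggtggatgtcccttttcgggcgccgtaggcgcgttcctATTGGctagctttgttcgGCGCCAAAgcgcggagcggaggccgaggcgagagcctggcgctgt
RRM2, chr2:10122318-10122617, + strand: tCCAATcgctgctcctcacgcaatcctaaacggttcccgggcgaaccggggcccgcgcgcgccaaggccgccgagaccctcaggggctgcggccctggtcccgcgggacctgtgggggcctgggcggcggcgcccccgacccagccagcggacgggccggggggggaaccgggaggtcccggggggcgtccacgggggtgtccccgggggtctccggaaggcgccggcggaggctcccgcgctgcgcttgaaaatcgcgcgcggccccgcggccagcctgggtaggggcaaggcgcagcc
CDT1, chr16:88803539-88803838, + strand: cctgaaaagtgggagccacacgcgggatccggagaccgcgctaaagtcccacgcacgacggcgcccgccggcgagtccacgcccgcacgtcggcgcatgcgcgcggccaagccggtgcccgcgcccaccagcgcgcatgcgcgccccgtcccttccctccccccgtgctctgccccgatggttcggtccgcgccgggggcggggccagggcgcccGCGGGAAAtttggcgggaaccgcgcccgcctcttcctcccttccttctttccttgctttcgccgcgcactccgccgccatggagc
ANLN, chr7:36389612-36389911, + strand: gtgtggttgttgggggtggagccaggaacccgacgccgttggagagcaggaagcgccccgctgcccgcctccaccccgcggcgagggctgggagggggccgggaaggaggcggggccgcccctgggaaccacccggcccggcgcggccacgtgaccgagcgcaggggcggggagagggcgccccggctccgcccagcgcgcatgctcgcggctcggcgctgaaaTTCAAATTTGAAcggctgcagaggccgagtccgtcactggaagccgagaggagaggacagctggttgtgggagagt
KIF23, chr15:69414099-69414398, + strand: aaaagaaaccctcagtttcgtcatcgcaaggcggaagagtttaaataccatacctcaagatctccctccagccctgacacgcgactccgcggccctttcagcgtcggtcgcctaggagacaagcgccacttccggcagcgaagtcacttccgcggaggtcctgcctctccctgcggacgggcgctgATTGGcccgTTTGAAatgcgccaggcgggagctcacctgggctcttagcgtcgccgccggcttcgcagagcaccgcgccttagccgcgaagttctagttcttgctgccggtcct
KIF20A, chr5:138178862-138179161, + strand: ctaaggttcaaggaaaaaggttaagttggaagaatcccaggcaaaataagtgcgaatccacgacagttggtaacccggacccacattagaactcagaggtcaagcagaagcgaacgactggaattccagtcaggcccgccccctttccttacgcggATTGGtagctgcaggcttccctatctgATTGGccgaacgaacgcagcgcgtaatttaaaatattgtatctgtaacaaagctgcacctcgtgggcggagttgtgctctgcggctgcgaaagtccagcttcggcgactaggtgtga
GINS1 holds an E2F match that begins at base 6 after the start site, and CDT1 one that begins 35 bases before it (position −35). RRM2 holds only a CCAAT at −249. In ANLN, a pair of adjoining CHR matches on opposite strands begins at −26 and −20. KIF23 holds a CCAAT at −64 (ATTGG on the strand shown) followed by CHR letters at −55, while KIF20A holds CCAAT at −94 and −67 and no CHR match in this window.

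Replication genes stood lower in both G2 and SCR than in WT cells and differed little between G2 and SCR. In SCR/WT, 19 of 20 were called lower (at least 1.5-fold with an unadjusted p of at most 0.05 in limma, which called 5.63% of all genes tested lower) and 0 higher (10.7% of all genes). Their log2 fold changes ran from −1.05 (RRM2) to −0.54 (RFC3, which fell just short of 1.5-fold), with a median of −0.78 against 0.01 over all genes. In G2/WT, 16 of 20 were called lower (12.2% of all genes) and 0 higher (17.7%), with a median of −0.72. In G2/SCR, 1 of 20 was called higher (15.1% of all genes) and 0 lower (11.8%), with a median of 0.08. The 3 comparisons share libraries, so their counts are not independent of each other.

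By a second rule, an adjusted p (Benjamini-Hochberg) not above 0.05 at any fold, which was added after the data were seen, the replication genes counted 20 of 20 lower in SCR/WT (18.3% of all genes, with 17% higher), 19 lower and 0 higher in G2/WT (25.4% and 27.2% of all genes), and 7 higher and 1 lower in G2/SCR (25.7% and 23.4%). All 20 had both WT libraries above all 3 SCR libraries, as 27.8% of the genes tested did. This count of lower calls depends on scaling. Every library was also set to the same total, which moves the median of all genes by 0.28 in SCR/WT and 0.19 in G2/WT. In that scaling, 8 replication genes were called lower in SCR/WT and 7 in G2/WT. Of all genes called then, 90.6% were higher in SCR/WT and 75.7% in G2/WT, against 65.6% and 59.3% with the deposited scaling. The share of all genes called lower in that scaling was not counted. Relative to that of all genes, the replication medians were then −0.78 and −0.72, against −0.79 and −0.72 with the deposited scaling. All 20 replication genes still stood below 0 in SCR/WT. With the deposited scaling and a minimum fold of 2, the count of lower calls was 2 in SCR/WT and 2 in G2/WT. The share of all genes called at that fold was not counted.

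**Figure D1:**
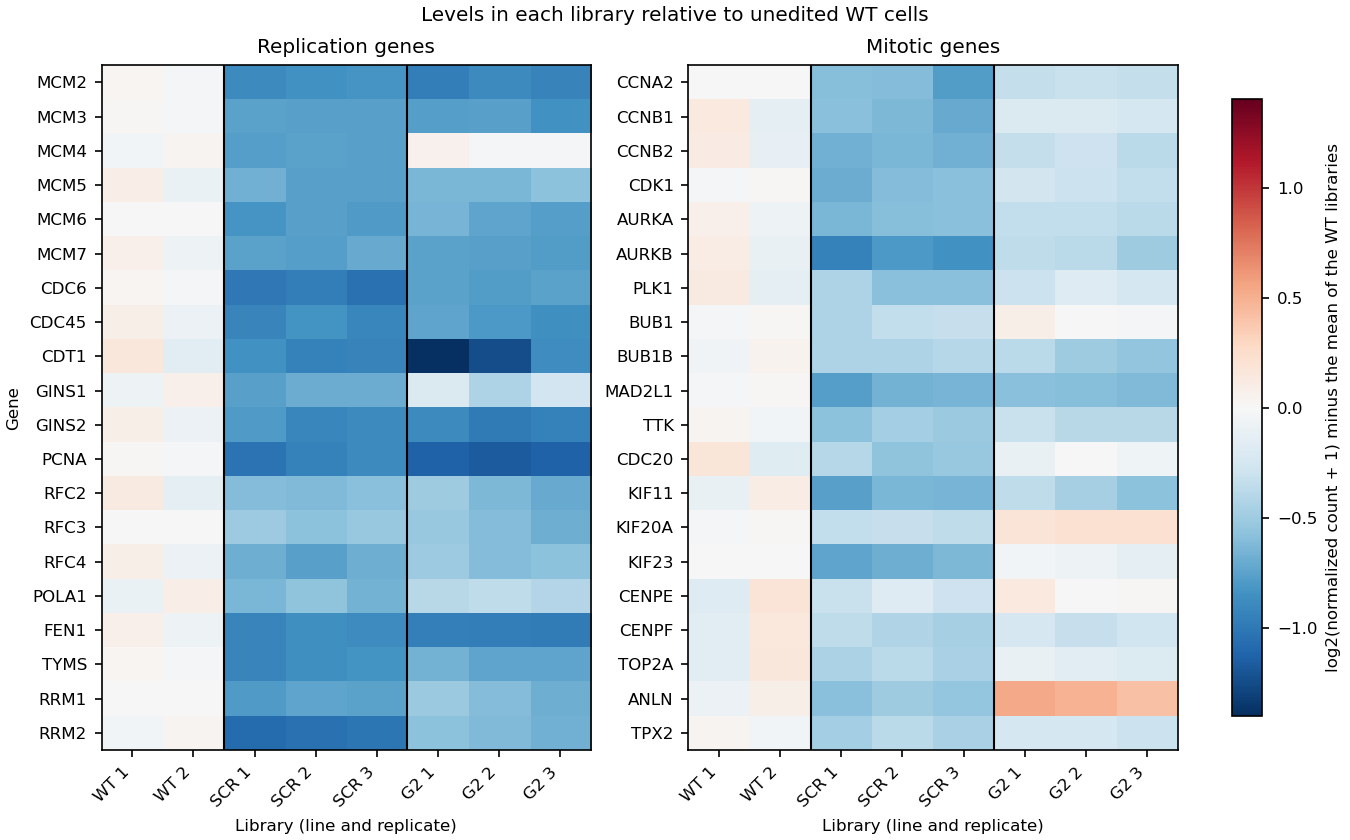
Each cell gives log2(normalized count + 1) of a gene (rows) in a library (columns) minus the mean of the WT libraries of that gene, blue for lower and red for higher, with replication genes on the left and mitotic genes on the right. Replication genes are about as blue in G2 as in SCR, with MCM4, GINS1 and RRM2 paler. Most mitotic genes are paler in G2 than in SCR, and ANLN and KIF20A are red in G2.

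In the helicase ring, 1 of the 6 subunits, MCM4, stood apart in G2. MCM4 stood at 9937, 9396 and 9397 normalized counts in G2, at 5574, 5639 and 5624 in SCR and at 9245 and 9758 in WT. All G2 libraries thus lay above all SCR libraries and overlapped with the WT libraries. Its log2 fold change was 0.77 ± 0.05 (SE) in G2/SCR (limma, adjusted p = 1.06e-07), −0.76 ± 0.06 in SCR/WT (adjusted p = 1.97e-06) and 0.01 in G2/WT (95% confidence interval −0.11 to 0.13; adjusted p = 0.883). The other ring subunits did not take this course. MCM2, for example, stood at 9729, 10262 and 9979 in G2, at 10302, 10612 and 10718 in SCR and at 19386 and 18757 in WT. Like MCM2, the subunits MCM3, MCM5, MCM6 and MCM7 were called lower than WT in both G2 and SCR. Between G2 and SCR, the log2 fold changes of these 5 subunits lay between −0.08 and 0.11, and none passed either rule. The count of MCM4 relative to the mean of the other 5 subunits, a ratio within a library that no scaling changes, was 0.626 to 0.662 in G2, 0.371 to 0.379 in SCR and 0.352 to 0.394 in WT.

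**Figure D2:**
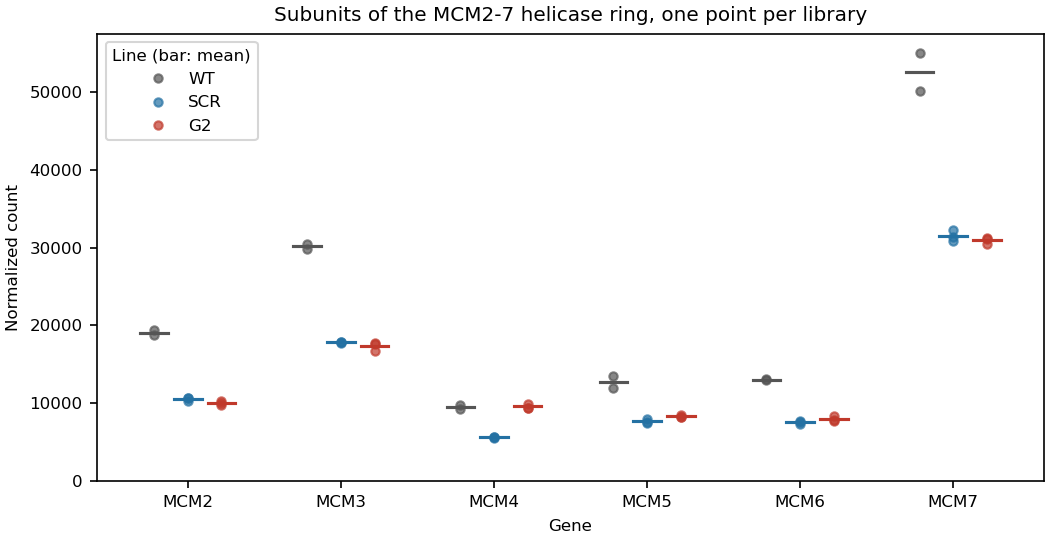
Normalized counts (vertical axis) of the 6 subunits of the helicase ring, 1 point per library and a bar at the mean of each line. MCM4 is the subunit for which the G2 points (9396 to 9937) sit with WT (9245 and 9758) and above SCR (5574 to 5639), while for the others G2 and SCR sit together below WT.

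MCM4 lies on chromosome 8 (hg38, chr8:47960904-47978160, + strand), beside PRKDC, the catalytic subunit of a DNA repair kinase, whose entry ends at 47960183. PRKDC stood at 5815, 5940 and 5592 normalized counts in G2, 3993, 3483 and 3420 in SCR and 4953 and 4585 in WT, which gave 0.67 as its log2 G2/SCR change (limma, adjusted p = 5.28e-06). Over the 12 genes within 5 Mb of MCM4 that averaged 100 or more normalized counts, PRKDC included, the median log2 fold change in G2/SCR was 0.63, with 10 of 12 above 0. In G2/WT that median was 0.28 (11 of 12 above 0), and in SCR/WT it was −0.03 (6 of 12). No other member had neighbours with a median as high: the next was BUB1 with 0.30, the lowest CDT1 with −0.20. Over all 463 such genes of chromosome 8 that are not members, the median was 0.27 in G2/SCR, the highest of the 23 chromosomes compared, followed by 0.09 for chromosome 13. These neighbours are a description, looked at after the value of MCM4 was known, and the cause was not tested.

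The factors that load and activate the helicase were lower in both G2 and SCR than in WT. CDC6 stood at 3738, 3656 and 3736 normalized counts in G2, 3140, 3200 and 3044 in SCR and 6385 and 6154 in WT. It was the replication gene with the second largest fall in SCR/WT (95% confidence interval of the log2 fold change −1.13 to −0.88), and G2 lay above SCR in every library by 0.25 (adjusted p = 0.00187), short of 1.5-fold. CDT1, the other loader, was the most variable member in G2, with 1078, 1207 and 1568 against 1585, 1482 and 1499 in SCR and 3186 and 2568 in WT. The G2 and SCR libraries of CDT1 overlapped, and the log2 fold change of −0.26 ± 0.12 did not pass the adjusted test (adjusted p = 0.0982), while both lines were lower than WT (−1.17 in G2/WT, −0.91 in SCR/WT).

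The GINS subunits parted in G2. GINS1 stood at 4394, 3740 and 4197 normalized counts in G2, 2968, 3102 and 3106 in SCR and 4788 and 5303 in WT, so that G2 lay between the others without overlap. Against SCR its log2 fold change was 0.42 ± 0.07 (SE; adjusted p = 3.09e-04), and against WT −0.30 ± 0.08 (adjusted p = 0.00685), both under 1.5-fold. GINS2 overlapped between G2 and SCR (7330 to 7865 against 7715 to 8417) and was called lower than WT in both. CDC45, which joins the ring with GINS, had log2 fold changes of 0.09 in G2/SCR, −0.80 in G2/WT and −0.89 in SCR/WT. GINS2 overlaps GSE1 on the other strand, and whether the counting used strand was not given in the sources used here.

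At the replication fork, PCNA, the sliding clamp, was the 1 replication gene lower in G2 than in SCR by the adjusted test. It stood at 17210.2, 16827 and 17254 normalized counts in G2, 18400 to 20336 in SCR and 38198 and 37268 in WT. The 3 G2 libraries lay below all SCR libraries, with a log2 fold change of −0.19 ± 0.05 (adjusted p = 0.00897) against −0.96 in SCR/WT and −1.14 in G2/WT. The clamp loader subunits RFC2, RFC3 and RFC4 had smaller falls in SCR/WT (−0.61, −0.54 and −0.71), which with POLA1 (−0.62) were the 4 nearest to 0. POLA1, the catalytic subunit of the polymerase that lays primers, was 0.23 higher in G2 than in SCR (adjusted p = 0.00858) and −0.39 in G2/WT, under 1.5-fold in both. FEN1, which trims flaps of lagging strand fragments, was called lower than WT in G2 (−0.97) and in SCR (−0.89). FEN1 overlaps FADS2 on the same strand and TMEM258 on the other.

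Of the genes that supply nucleotides, RRM2, the regulated subunit of ribonucleotide reductase, showed the largest fall of all 40 genes in SCR/WT. It stood at 13903, 13453 and 12949 normalized counts in G2, 9800.4, 10011 and 10241 in SCR and 20123 and 21264 in WT. SCR was lowest and G2 lay between, without overlap, with log2 fold changes of −1.05 ± 0.06 (SE) in SCR/WT, −0.62 ± 0.06 in G2/WT and 0.42 ± 0.05 in G2/SCR (adjusted p = 2.16e-05). RRM1, the large subunit of the enzyme, was also lower than WT in both lines (−0.76 in SCR/WT, −0.60 in G2/WT), but differed by 0.16 between G2 and SCR. The ratio of RRM2 to RRM1 counts was 1.69 to 1.76 in G2, 1.41 to 1.46 in SCR and 1.70 to 1.80 in WT, so that this ratio in G2 overlapped with WT and not with SCR. TYMS, thymidylate synthase, had log2 fold changes of −0.87 in SCR/WT, −0.71 in G2/WT and 0.16 in G2/SCR, and it overlaps ENOSF1 on the other strand.

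Most mitotic genes were higher in G2 than in SCR by less than 1.5-fold, and most were lower than WT in both lines at the adjusted p. ANLN and KIF20A were higher in G2 than in WT by that test. BUB1, CDC20, KIF23, CENPE and TOP2A did not pass it in G2/WT. In G2/SCR, 2 of 20 were called higher (ANLN and KIF23; 15.1% of all genes) and 0 lower, but 17 of 20 were higher at the adjusted p and 0 lower (25.7% and 23.4% of all genes), and the median was 0.32 on the log2 scale. In 19 of 20 mitotic genes all G2 libraries lay above all SCR libraries, as in 31.7% of the genes tested, against 9 of 20 replication genes. In SCR/WT, 9 of 20 were called lower (5.63% of all genes) and 19 at the adjusted p (18.3%), with a median of −0.54. In G2/WT, 1 was called lower (MAD2L1; 12.2% of all genes), 13 were lower and 2 higher at the adjusted p (25.4% and 27.2%), with a median of −0.27. The count of 2 in G2/SCR was 1 without G2 replicate 1 and without SCR replicate 1, when KIF23 fell just short of 1.5-fold, and the count of 1 in G2/WT was 0 without WT replicate 2.

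With libraries set to the same total, 12 of 20 mitotic genes were higher in G2/SCR at the adjusted p and 0 lower, with 19 of 20 above 0, whereas the replication genes turned from 7 higher and 1 lower to 4 higher and 8 lower. In SCR/WT, 14 mitotic genes were then lower at the adjusted p, and 1 by the 1.5-fold rule. In that scaling ANLN was called higher in G2/WT (0.66), and no mitotic gene was called lower there. Of all genes called in G2/SCR, 47.5% were then higher, against 56.2% with the deposited scaling. The shares of all genes that passed each rule were not counted in that scaling. Relative to the median of all genes, the mitotic median in G2/SCR was 0.33 in both scalings and the replication median 0.10.

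**Figure D3:**
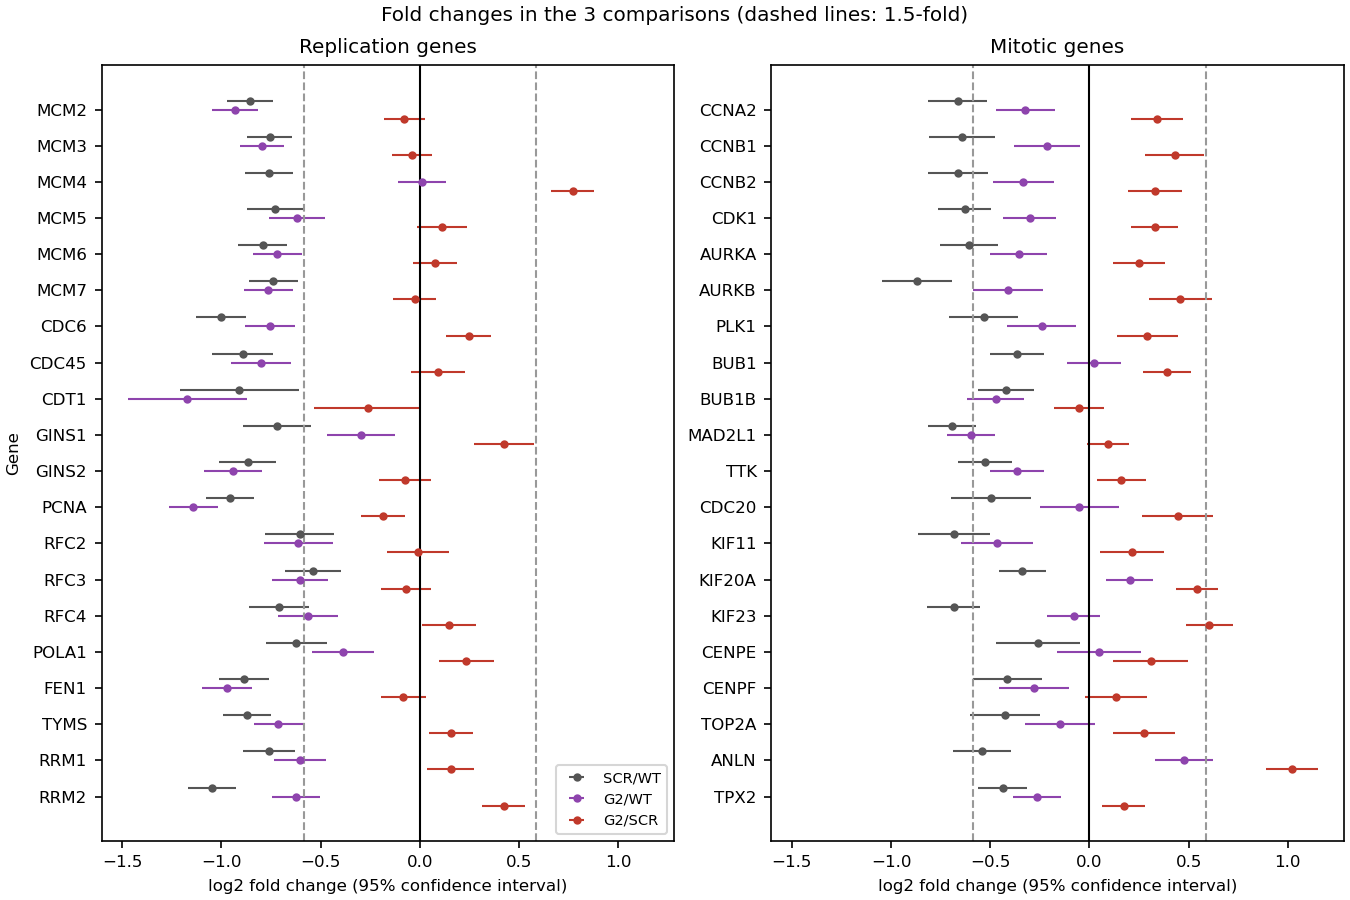
Log2 fold changes (points) with 95% confidence intervals (bars) from limma for replication genes (left) and mitotic genes (right) in SCR/WT (grey), G2/WT (purple) and G2/SCR (red), with dashed lines at 1.5-fold. For replication genes the purple points lie close to the grey ones and the red ones near 0 (median 0.08), while for mitotic genes the purple points lie nearer to 0 than the grey ones and the red ones mostly right of 0 (median 0.32).

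Setting each gene's G2 mean between its SCR mean (0%) and its WT mean (100%) on the log2 scale, the median place of G2 was 9.87% for replication genes and 52.5% for mitotic genes. Individual genes ranged from −28.8% (CDT1) to 102% (MCM4) among the former and from −12.5% (BUB1B) to 188% (ANLN) among the latter, so the ranges overlapped widely. Within each library, the geometric mean of the mitotic genes was divided by that of the replication genes, a ratio that no scaling of the library changes and that serves to compare libraries only, since counts are not per length. It was 0.906, 0.918 and 0.886 in G2, 0.763, 0.777 and 0.761 in SCR and 0.629 and 0.656 in WT. The lines did not overlap, and G2 and WT stood at opposite ends with SCR between them. No test was made of these scores over the genes.

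**Figure D4:**
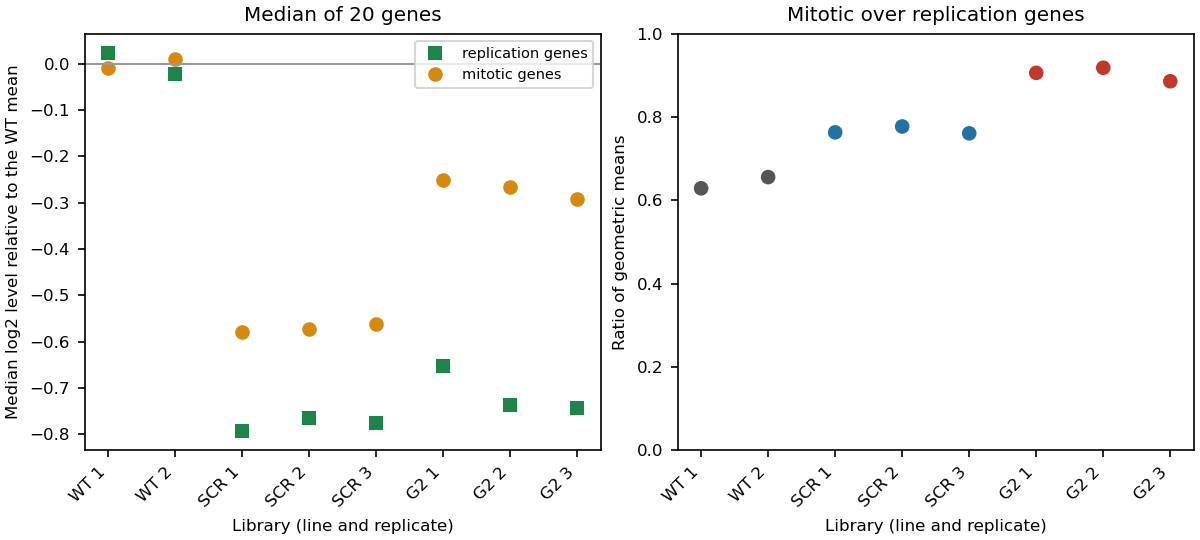
Left, the median over 20 genes of the log2 level relative to the WT mean in each library, for replication genes (squares) and mitotic genes (circles). Right, the ratio of the geometric means of mitotic and replication genes in each library, coloured by line. Replication medians are alike in SCR (−0.79 to −0.77) and G2 (−0.74 to −0.65), mitotic medians are −0.58 to −0.56 in SCR and −0.29 to −0.25 in G2, and the ratio is 0.629 to 0.656 in WT, 0.761 to 0.777 in SCR and 0.886 to 0.918 in G2.

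The cyclins and CDK1 had like values. CCNB1, cyclin B1, stood at 10496.8, 10504 and 10183 normalized counts in G2, 8028, 7762 and 7365 in SCR and 13236 and 10967 in WT. G2 lay above SCR and below WT in every library, at 0.43 ± 0.07 (SE, log2) over SCR (adjusted p = 2.27e-04), with −0.64 in SCR/WT and −0.21 in G2/WT. CCNA2, CCNB2 and CDK1 had log2 fold changes of 0.33 to 0.34 in G2/SCR and were lower than WT at the adjusted p in both G2 and SCR. All 4 were called lower in SCR/WT and none in G2/WT. CCNA2 overlaps EXOSC9 on the other strand.

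Among the spindle kinases, AURKB, the kinase of the chromosomal passenger complex, had the largest fall of the mitotic genes in SCR/WT. It stood at 3423, 3387 and 3094 normalized counts in G2, 2272, 2505 and 2437 in SCR and 4726 and 4069 in WT. SCR was lowest and G2 lay between without overlap, with −0.87 ± 0.08 (SE) in SCR/WT and 0.46 ± 0.07 in G2/SCR (adjusted p = 2.35e-04). AURKA, PLK1 and TPX2, the activator of Aurora A, were higher in G2 than in SCR by 0.25, 0.29 and 0.17 at the adjusted p and lower than WT by the same test in both lines. PLK1 overlaps ERN2 on the other strand.

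The spindle checkpoint genes differed among themselves. BUB1, a checkpoint kinase, stood at 5806, 5497 and 5417 normalized counts in G2, 4057, 4322 and 4395 in SCR and 5407 and 5563 in WT, so that G2 overlapped with WT and lay above SCR (0.39 ± 0.06, adjusted p = 1.01e-04). BUB1B, which encodes BUBR1 of the same checkpoint, stood at 7561, 6951 and 6669 in G2, 7238, 7282 and 7419 in SCR and 9470.0 and 10121 in WT. Its G2 and SCR libraries overlapped (−0.05, 95% confidence interval −0.18 to 0.07), and both were lower than WT at the adjusted p. BUB1B shares its strand and part of its locus with PAK6, and its reads may be split between them. MAD2L1, the checkpoint protein that holds back the anaphase-promoting complex, had log2 fold changes of 0.09 in G2/SCR (adjusted p = 0.135), −0.60 in G2/WT and −0.69 in SCR/WT. TTK, the checkpoint kinase upstream of both, had 0.16, −0.36 and −0.53.

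CDC20, the activator of the anaphase-promoting complex, stood at 7000.4, 7560 and 7223 normalized counts in G2, 5721, 5079 and 5212 in SCR and 8459 and 6686 in WT. G2 lay above SCR in every library (0.45 ± 0.08 SE, adjusted p = 7.20e-04) and overlapped with WT (−0.05, adjusted p = 0.669). The WT libraries of CDC20 lay further apart than those of most members, and without WT replicate 2 its SCR/WT log2 fold change of −0.50 became −0.67 and was called.

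Among the motors, KIF23 and KIF20A stood furthest above SCR. KIF23, the motor of the central spindle, stood at 5383, 5262 and 5033 normalized counts in G2, 3306, 3426 and 3578 in SCR and 5503 and 5528 in WT. G2 was above SCR by 0.60 ± 0.05 (SE; adjusted p = 2.02e-06), and its difference from WT was −0.08 (95% confidence interval −0.21 to 0.06). KIF20A, a kinesin needed for cytokinesis, stood at 6233, 6378 and 6410 in G2, 4336, 4417 and 4319 in SCR and 5437 and 5588 in WT. It was 1 of 2 mitotic genes with all G2 libraries above WT, as 33.3% of the genes tested had, at 0.54 ± 0.05 over SCR (adjusted p = 1.99e-06), just under 1.5-fold, and 0.20 ± 0.05 over WT (adjusted p = 0.00814). KIF20A overlaps CDC23 on the other strand. KIF11, the motor that separates spindle poles, was 0.21 in G2/SCR, −0.47 in G2/WT and −0.68 in SCR/WT.

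CENPE, a kinetochore motor, was the mitotic gene that did not pass either rule in SCR/WT (−0.26, adjusted p = 0.0539), with 3675 and 4708 normalized counts in WT and 3355 to 3682 in SCR. The lower WT library lay within the range of the SCR libraries. CENPF and TOP2A, topoisomerase II alpha, also had WT replicate 2 well above WT replicate 1 (15738 against 12762 and 17813 against 14314), and their log2 fold changes of −0.41 and −0.43 in SCR/WT passed the adjusted test only. In G2/SCR, TOP2A was 0.28 higher (adjusted p = 0.00665), and CENPF had 0.13 (adjusted p = 0.146).

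ANLN, which encodes anillin, the scaffold of the contractile ring, had the largest change of all 40 genes in G2/SCR. It stood at 9792, 9476 and 8992 normalized counts in G2, 4497, 4787 and 4645 in SCR and 6394 and 7155 in WT. G2 was above both other lines in every library, by 1.02 ± 0.06 (SE) over SCR (adjusted p = 4.12e-08) and 0.48 ± 0.07 over WT (adjusted p = 8.26e-05), the latter under 1.5-fold, while SCR was below WT by −0.54 ± 0.07 (adjusted p = 8.83e-05). Relative to the mean of the other 19 mitotic genes in the same library, ANLN was at 1.30 to 1.36 in G2, 0.766 to 0.800 in SCR and 0.747 to 0.828 in WT. Its level relative to the group was thus alike in SCR and WT and higher in G2. Over the 31 genes within 5 Mb of ANLN on chromosome 7, the median in G2/SCR was −0.04 with 14 above 0, in contrast to the neighbours of MCM4. ANLN overlaps MATCAP2 on the other strand.

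**Figure D5:**
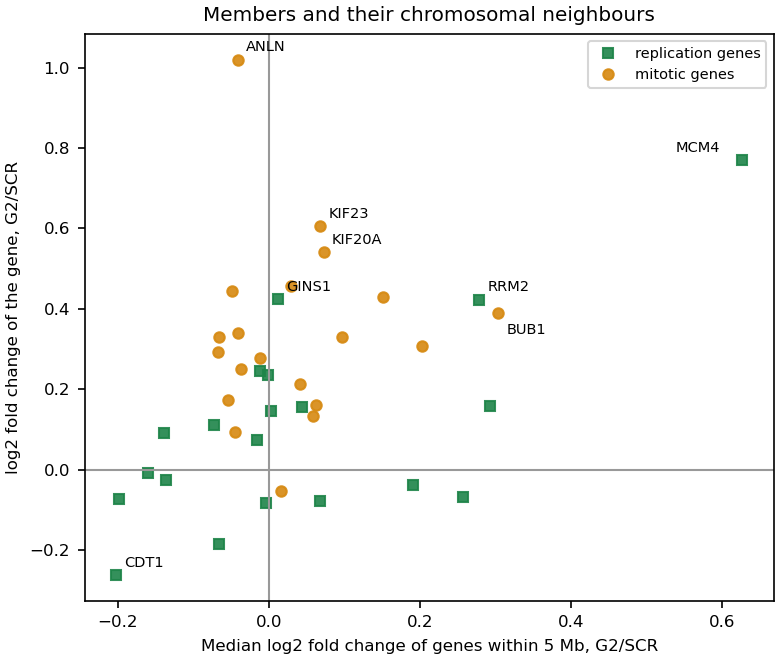
Log2 fold change in G2/SCR of each member (vertical axis) against the median log2 fold change of the other genes within 5 Mb of it that averaged 100 or more normalized counts (horizontal axis), squares for replication and circles for mitotic genes. MCM4 lies alone at the upper right (neighbours 0.63, own 0.77), while ANLN lies at the top with neighbours at −0.04.

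A rule that combines the comparisons, a call one way against SCR and against WT alike with none between SCR and WT, was met by 0 of 20 replication genes and 0 of 20 mitotic genes, against 13.8% of all genes tested. With libraries set to the same total, ANLN met it. With the deposited scaling, MCM4, KIF23 and ANLN were called against SCR but not against WT.

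Longer lists of both pathways were counted by the same rules. Of 51 other replication genes, 50 were tested, all but ORC2, which stood near 0 in every library. In SCR/WT, 26 were called lower and 0 higher (5.63% and 10.7% of all genes), in G2/WT 23 lower and 2 higher (12.2% and 17.7%), and in G2/SCR 0 lower and 2 higher (11.8% and 15.1%), with medians of −0.60, −0.54 and 0.07. Of 74 other mitotic genes, 33 were called lower in SCR/WT and 0 higher, 10 lower and 1 higher in G2/WT, and 1 lower and 4 higher in G2/SCR, with medians of −0.57, −0.29 and 0.24. Set against the same shares of all genes, the count of lower genes was above the background in SCR/WT for both lists, and the counts called in G2/SCR were below it in both directions. At the adjusted p, 52 of the 74 were higher in G2/SCR and 2 lower (25.7% and 23.4% of all genes), against 14 higher and 8 lower of the 50.

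The lowest p-values for G2 against SCR in these lists were those of POLD4, TK1 and MTBP, and SPDL1, PBK and CENPK. SPDL1, which brings dynein to kinetochores, stood at 7587, 7098 and 7069.6 normalized counts in G2, 2977, 3129 and 2985 in SCR and 3297 and 3464 in WT. It was higher by 1.26 ± 0.06 (SE) than in SCR (adjusted p = 3.38e-09) and by 1.10 ± 0.06 than in WT, with all G2 libraries above both other lines. POLD4, the small subunit of DNA polymerase delta, was likewise above both (1820, 1985 and 1971 in G2, 976.7 to 1099 in SCR, 1029 and 838.0 in WT), with 0.87 ± 0.09 in G2/SCR and 1.05 ± 0.10 in G2/WT. MTBP, on chromosome 8, had 0.83 and 0.73 in these comparisons. CENPK was called higher in G2/SCR (0.60) and lower in SCR/WT (−0.64). In G2/SCR, TK1 (0.45) and PBK (0.47), the latter also on chromosome 8, stayed under 1.5-fold. MKI67, the gene of the proliferation marker Ki-67, stood 0.29 over SCR in G2 (adjusted p = 0.0255), with −0.28 in G2/WT and −0.57 in SCR/WT, with WT libraries at 14689 and 19644 normalized counts.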

How the data were processed

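Per the labels and the study's methods, poly-A RNA was sequenced as stranded paired reads, aligned to hg38 with STAR, counted with featureCounts (Subread 1.5.0) over FAST DB genes and normalized with DESeq2. The deposited table holds the authors' normalized counts, a signal per gene and library (each count divided by a size factor), with columns of their own fold changes and p-values, which were not used.

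The 40 members and the other lists were chosen with earlier results of these data known. Differences were tested with limma 3.58.1 (R 4.3.3; trend on the mean) on log2(normalized count + 1) in 1 fit of the 3 lines, over the 18947 genes averaging 10 or more, and checked on simulated data. Fold changes are on the log2(value + 1) scale. A call needs 1.5-fold or more and an unadjusted p up to 0.05, as in the study's methods. Adjusted p-values (Benjamini-Hochberg) run over all genes tested. Confidence intervals are at 95%.

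Whole counts were recovered from the value steps, with 100% of values within 0.1 of a whole number in each library. The step of WT replicate 2, 0.993, lies near 1, and the tests that follow used no WT counts. On these counts edgeR 4.0.16 and DESeq2 1.42.0 tested G2/SCR, and called 2909 and 2842 genes higher and 2184 and 2131 lower. Named are all members, PRPF40B, MKI67 and the 3 lowest p-values for G2 against SCR of each longer list. PRKDC and the neighbours were added after the values were seen. Overlapping genes are from GENCODE on hg38. Other scalings, filters, pseudocounts, fits and libraries left out were tried as alternatives.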

Additional observations from a re-analysis of the deposited data

How the results depend on the processing

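With libraries set to the same total, the replication genes called numbered 7 in G2/WT and 8 in SCR/WT. The mitotic genes called were 1 in G2/SCR, 1 in SCR/WT and 1 specific to G2 (ANLN). At the adjusted p, 9 mitotic genes then passed in G2/WT, 3 higher and 6 lower. Without ribosomal RNA in that total, 9 replication genes were called in SCR/WT, and 1 mitotic gene in G2/SCR, 1 in SCR/WT and 1 specific to G2. TMM gave 0 mitotic genes in G2/WT, where the main value of MAD2L1 lies close to 1.5-fold, and an equal upper quartile gave 1 in G2/SCR. These scalings move the fold changes of all genes together, and the shares of all genes called under them were not counted. A fold of 1.2 gave 3 replication and 13 mitotic genes in G2/SCR. It gave 12 mitotic genes in G2/WT, ANLN being higher and the others lower, and 19 in SCR/WT. A fold of 2 gave 0, 2 and 2 replication genes in G2/SCR, G2/WT and SCR/WT and 1, 0 and 0 mitotic genes, and PRPF40B (−0.95 in G2/SCR) was then not called. The shares of all genes called at a fold of 1.2 or of 2 were not counted. Leaving out 1 library at a time gave 1 to 2 mitotic genes in G2/SCR and 0 to 1 in G2/WT. No gene called by the 1.5-fold rule changed sign under the alternatives run, but with the same total the median of the replication genes in G2/SCR went from 0.08 to −0.0073.

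Libraries with the same replicate number in their titles did not deviate together (correlations of −0.03 to 0.04), so these numbers showed no pairing. The library names carry other numbers, and libraries that match by those had correlations of −0.03 to 0.05. No fit was made with the numbers of the library names. With the title number as a replicate block, replication genes called were 1, 16 and 19 in G2/SCR, G2/WT and SCR/WT. Mitotic genes called were 2, 1 and 9.

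With 2 WT libraries and 1 line for each guide, the comparisons describe these lines. WT differed from both in ribosomal RNA content, which cannot be told apart from the line.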
